A study of Mus musculus with 4 samples.

Results

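A gate for somatostatin interneurons of the mouse basolateral amygdala took 630 nuclei out of 26850 kept in single-nucleus RNA sequencing. They were chosen by unique molecular identifiers (UMIs, counted RNA molecules) of marker genes. A member held at least 1 UMI of Gad1, Gad2 or Slc32a1, the genes for GABA synthesis and vesicular loading. It held at least 5 UMIs, and at least 8 per 10000, of Sst, Moxd1 and Crhbp summed. It held 0 Pvalb UMIs, at most 1 Vip UMI, at most 3 Foxp2 UMIs and at most 1 UMI of Slc17a7 and Slc17a6 summed. Nuclei with at least 500 genes and under 5% mitochondrial UMIs were considered. Of the members, 71 held no Sst UMI and are not described as somatostatin neurons. All members are called Sst-gated nuclei. They were set against 2280 other GABAergic nuclei, which held at least 3 UMIs, and at least 5 per 10000, of Gad1, Gad2 and Slc32a1. These nuclei also held at most 1 UMI of Slc17a7 and Slc17a6 summed. Of the 2280, 122 were gated on Vip, 891 on Foxp2, 14 on Pvalb, and 1253 passed none of these gates. The Vip and Pvalb gates each needed at least 2 UMIs of that gene, and the Foxp2 gate at least 4. Both the Vip and the Pvalb gate allowed at most 3 Foxp2 UMIs. The Vip gate also required 0 Pvalb UMIs, and the Pvalb gate at most 1 Vip UMI.

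The series compared wild-type (WT) with DISC1-N mice, both of the C57BL/6J strain, and its title concerns astrocytes, amygdala neurons that express Wfs1 and risk assessment. All animals received tamoxifen 6 h before collection, and tissue from both sides of 5 mice was pooled for each group. Each genotype had 2 libraries, replicate 1 and replicate 2. No source used here says what DISC1-N changes in Disc1, which promoter drives it or what the tamoxifen was for. Nothing in the labels shows that replicate libraries came from separate mice, and p-values may then reflect only the technical variation between libraries. The libraries held 37840301 to 48439711 UMIs and 4507 to 8200 kept nuclei, and 5 to 21 barcodes were shared by any pair of libraries, none of them by members. Members numbered 129 in WT replicate 1, 96 in DISC1-N replicate 1, 223 in WT replicate 2 and 182 in DISC1-N replicate 2. Their summed depth was 715027, 674477, 1168659 and 1107001 UMIs in the same order, with medians of 5079, 5756, 4838 and 5752 UMIs per nucleus.

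Somatostatin interneurons release GABA together with the peptide somatostatin and mostly contact the dendrites of principal neurons. With parvalbumin interneurons they descend from the medial ganglionic eminence, where Lhx6, Sox6 and Satb1 act in their specification. A long-range projecting kind is known for Chodl, Npy and Nos1. In the amygdala, somatostatin neurons take part in fear learning and anxiety-related behaviour.

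Disc1 itself was scarce in the members. It gave 2.80 and 7.70 CPM (UMIs per 1000000 of the summed UMIs of those nuclei) in WT replicates 1 and 2, and 7.41 and 4.52 CPM in DISC1-N replicates 1 and 2. The genotypes overlapped. Over all GABAergic nuclei the DISC1-N against WT log2 fold change of Disc1 was 0.22 (SE 0.38, adjusted p = 0.9999, edgeR). Whether 3' tags can report the DISC1-N change is not given, so this level does not check the labels.

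The genes of the gate describe how members were chosen and carry no test. Sst (chromosome 16, 23889573 to 23890958) stood at 4341 CPM in WT replicate 1, 4740 in DISC1-N replicate 1, 5589 in WT replicate 2 and 2111 in DISC1-N replicate 2. DISC1-N replicate 2 was the lowest library, while the other DISC1-N library lay between the WT libraries. In the same order, 91.5%, 94.8%, 92.4% and 79.1% of members held an Sst UMI, with medians of 13, 18, 11 and 8 Sst UMIs. A single nucleus of WT replicate 2 held 1230 Sst UMIs, 18.8% of that library's members' total. Without the highest nucleus of each library the levels were 4075, 4316, 4561 and 2024 CPM, with DISC1-N replicate 2 still lowest.

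Moxd1 (a monooxygenase-like gene; chromosome 10, 24223517 to 24302790) gave 376, 320, 438 and 517 CPM in the same order of libraries. Crhbp, the binding protein of corticotropin-releasing hormone (chromosome 13, 95431371 to 95444924), gave 277, 228, 221 and 191 CPM. Neither set DISC1-N replicate 2 apart in the way Sst did: Moxd1 was highest there and Crhbp lowest.

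Sst UMIs were found in every kind of nucleus examined, and whether free RNA contributed them was not tested. In oligodendrocyte nuclei, 38.5%, 29.2%, 14.0% and 11.7% held an Sst UMI in WT 1, DISC1-N 1, WT 2 and DISC1-N 2, at 217, 155, 79.2 and 65.1 CPM and median depths of 1639 to 1673 UMIs in replicate 1 and 1571 to 1656 in replicate 2. In other GABAergic nuclei Sst averaged 118 ± 75.0 CPM (SD, n = 4 libraries). The members' Sst level stood far above this in all 4 libraries, but the gate chose them partly on Sst, so the gap describes that choice.

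**Figure D1:**
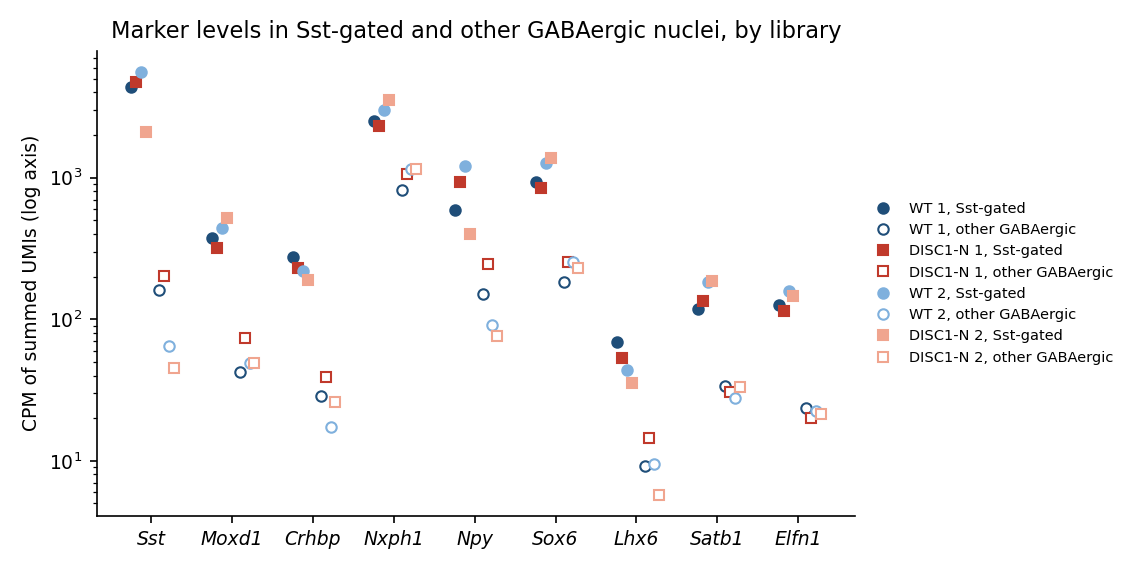
Levels of 9 marker genes in CPM (log axis) in the Sst-gated nuclei (filled) and the other GABAergic nuclei (open) of each library. Sst, Moxd1 and Crhbp were used to choose the members; every filled point lies above the open points of its gene, and Sst and Npy are lowest in DISC1-N replicate 2.

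Nxph1, a secreted ligand of neurexins and a marker that the gate did not use (chromosome 6, 8948431 to 9249032), was high in the members. It stood at 2508, 2322, 2984 and 3527 CPM in members of WT 1, DISC1-N 1, WT 2 and DISC1-N 2. Other GABAergic nuclei held 1045 ± 155 CPM, and no library overlapped. Nxph1 was detected in 97.1% of members and 38.6% of other GABAergic nuclei, or 87.0% and 30.7% after thinning each nucleus to 1000 UMIs, which left out 2 of the other nuclei.

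The gate let nuclei in by more than one route. Of 874 nuclei that met the Sst, Moxd1 and Crhbp limits, 94 had no UMI of the GABA genes, 58 held a Pvalb UMI, 81 held 2 or more vesicular glutamate transporter UMIs, 47 held 4 or more Foxp2 UMIs and 8 held 2 or more Vip UMIs (40 failed for more than 1 reason). Among the 630 members, 455 (72.2%) met the limits through Sst alone. The other 175 needed Moxd1 or Crhbp, and 71 of these (11.3% of all members) held no Sst UMI. At the limit, the 45 nuclei with exactly 5 UMIs of the 3 genes held 3892 CPM of Nxph1 and 1129 of Sox6, and the 73 nuclei just outside with 4 UMIs held 3825 and 1281.

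The members that entered through Sst alone differed from the others in genes the gate did not use. These genes were compared after their values had been seen and carry no test. Erbb4, the neuregulin receptor gene, stood at 1303 CPM in the Sst route (1035 to 1474 over libraries), 4282 CPM in the other members (3245 to 4789) and 7552 CPM in the 71 members without an Sst UMI (6973 to 9370). The 14 Pvalb-gated nuclei held 7162 CPM of Erbb4. Vip-gated nuclei held 8538, Foxp2-gated nuclei 6223 and GABAergic nuclei without a gate 5191 CPM, so high Erbb4 was not particular to Pvalb-gated nuclei. The library ranges of the 3 sets of members' values did not overlap.

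Genes of somatostatin cells ran the other way. Npy, the neuropeptide Y gene, stood at 1087 CPM in the Sst route, 55.9 CPM in the other members, 30.2 CPM in members without Sst and 20.1 CPM in Pvalb-gated nuclei. Satb1, a chromatin organiser needed by these cells, held 195, 78.7, 15.1 and 30.2 CPM in the same sets. Elfn1, a postsynaptic adhesion gene of synapses onto somatostatin cells, held 172, 59.7, 20.2 and 0 CPM, and Grin3a, an NMDA receptor subunit gene, 495, 337, 179 and 101 CPM. All 4 genes were therefore higher where Sst itself carried the gate than where it did not. The library ranges of the Sst route and the other members overlapped for Grin3a (358 to 680 and 127 to 449 CPM). Vip-gated nuclei held 71.7 CPM of Elfn1, above the other members, and 92.6 CPM of Grin3a, below them.

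Kcnc1, a fast potassium channel gene of parvalbumin cells, was higher outside the Sst route (79.7 CPM in it, 145 in the other members, 189 without Sst, 221 in Pvalb-gated nuclei). Btbd11 followed the same order up to the last pair, at 86.2, 171, 295 and 251 CPM, as did Tafa2 at 527, 1065, 1232 and 1036 CPM. Of 2 scarcer genes of the parvalbumin list, Cox6a2 rose (11.5, 24.7, 35.3 and 111 CPM) and Eya4 did not (4.21, 0.948, 2.52 and 0 CPM). Markers shared by both kinds of cell were not lost: Sox6 held 1115, 1248, 1262 and 935 CPM and Nxph1 2490, 4030, 5228 and 3058 CPM. The markers thus matched the label in the 455 nuclei of the Sst route, while the 71 members without Sst carried levels of Erbb4, Btbd11 and Satb1 far from those of the Sst route and near those of both Pvalb-gated and Vip-gated nuclei, the latter at 8538, 329 and 24.5 CPM. Vip-gated nuclei differed from these members in Sox6 (124 CPM, 0 to 321 over libraries) and Nxph1 (332 CPM, 10.7 to 714). The 71 members without Sst are described as members by the rule, not as somatostatin neurons.

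**Figure D2:**
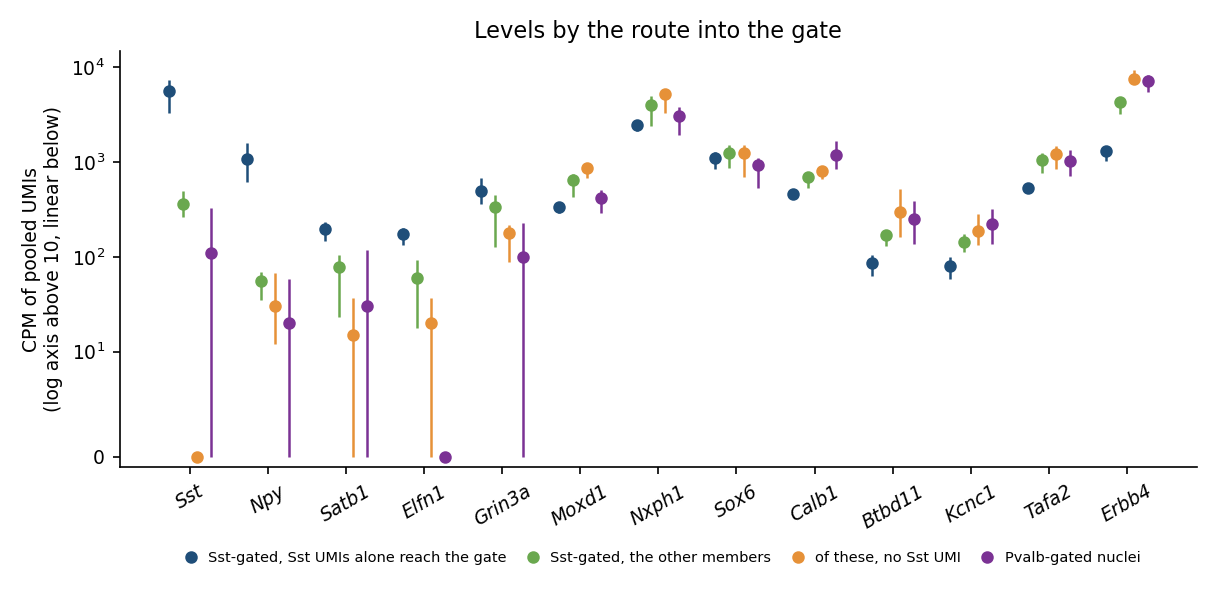
CPM of pooled UMIs (log axis above 10, linear below) by route into the gate; points are all libraries pooled and lines run from the lowest to the highest library. Npy, Satb1, Elfn1 and Grin3a decrease from the Sst route to the members without Sst, and Erbb4, Btbd11, Kcnc1 and Tafa2 increase. The 14 Pvalb-gated nuclei are shown beside them, and high Erbb4 was not particular to those nuclei.

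The routes were not equally filled across libraries. The Sst route held 76.0% of members in WT replicate 1, 81.3% in DISC1-N replicate 1, 75.3% in WT replicate 2 and 61.0% in DISC1-N replicate 2. Members without an Sst UMI made up 8.53%, 5.21%, 7.62% and 20.9%. DISC1-N replicate 2 stood apart from the other 3 libraries in both shares, and DISC1-N replicate 1 stood at the opposite end. Within the Sst route Sst was still lowest in DISC1-N replicate 2 (5608, 5949, 7400 and 3280 CPM in the order above), and so was Npy (761, 1177, 1607 and 615 CPM).

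Among the genes known to divide somatostatin interneurons, a small group was marked by Chodl. A Chodl UMI was found in 60 members (5, 7, 29 and 19 in WT 1, DISC1-N 1, WT 2 and DISC1-N 2). Their median depth was 5382 UMIs, against 5156 in the 570 members without one. Pooled over libraries, Npy stood at 3524 CPM in the members with Chodl (1054 to 6184 over libraries) and 483 CPM in those without (292 to 817). Nos1, neuronal nitric oxide synthase, stood at 311 CPM (34.0 to 441) and 41.9 CPM (25.2 to 54.6), and Tacr1, the substance P receptor gene, at 227 CPM (141 to 311) and 28.8 CPM (11.1 to 50.8). Sst was also higher in the Chodl nuclei (12014 CPM, 5614 to 19399, against 3254 CPM, 1701 to 4537), and Calb1, the calbindin gene, was lower (273 CPM, 136 to 348, against 560 CPM, 483 to 583). The library ranges of the 2 sets overlapped for Nos1 and for none of the other 4 genes. A nucleus with a Chodl UMI held at least 5 Npy UMIs in 58.3% of cases, against 14.2% of the others. Nuclei of 1 library share their source, so these values are given without a test.

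Npy was concentrated in few nuclei. The tenth of members with the most Npy held 65.6% to 81.3% of a library's Npy UMIs, and 1 nucleus of WT replicate 2 held 382 UMIs, or 27.1%. Calb1 was spread widely: it was detected in 77.9% of members (40.0% after thinning) and 26.6% of other GABAergic nuclei (9.44% after thinning). Cort, the cortistatin gene, gave a UMI in 16.8% of members and 4.56% of other GABAergic nuclei (5.56% and 1.27% after thinning), and Calb2 in 7.46% and 2.89% (1.90% and 0.658%). Reln gave a UMI in 16.7% of members and 18.2% of other nuclei (4.44% and 9.26%), and Crh in 3.02% and 1.89% (0.794% and 0.746%). Reln was thus found more often outside the members, and the shares for Crh were close after thinning.

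Against the other GABAergic nuclei, Sst-gated nuclei were higher in 1235 genes and lower in 1233 of 11193 tested, 11.0% and 11.0% (edgeR quasi-likelihood test, library as a block, Benjamini-Hochberg adjusted p under 0.05). The gate made this contrast, so the counts and fold changes describe the members, and their p-values give no independent support. The 15 largest rises that passed the naming rule included genes of medial ganglionic eminence cells and secreted peptides. Elfn1 stood at 126, 114, 157 and 146 CPM in members of WT 1, DISC1-N 1, WT 2 and DISC1-N 2 and at 21.8 ± 1.56 CPM (SD, n = 4) in other GABAergic nuclei, a log2 fold change of 2.66 (SE 0.11). Nppc, the C-type natriuretic peptide gene, stood at 64.3, 78.6, 57.3 and 28.9 CPM against 6.94 ± 1.83, a log2 fold change of 3.01 (SE 0.19). Both were higher in members in 4 of 4 libraries.

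Npy (chromosome 6, 49822710 to 49829507) was higher by 2.52 on the log2 scale (SE 0.16), from 587, 927, 1206 and 399 CPM in members. The transcription factor genes Lhx6 (2.38), Satb1 (2.35) and Sox6 (2.26) were higher by the log2 fold changes given. Other large differences were seen for Tmem132c (2.45), L3mbtl4 (2.29), Ndst4, a heparan sulfate sulfotransferase gene (2.24), Tmem44 (2.21), Pstpip2 (2.19), the cation channel gene Trpc6 (2.18), the mannosidase gene Man1a (2.11) and Spon1 (1.98).

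The 15 largest falls included markers of other GABAergic lineages. Adarb2, a marker of caudal ganglionic eminence interneurons, stood at 295, 132, 169 and 273 CPM in members and 3038 ± 444 CPM in other GABAergic nuclei, a log2 fold change of -3.84 (SE 0.12). Meis2, a transcription factor gene of striatal-type and intercalated neurons, stood at 112, 44.5, 72.7 and 69.6 CPM against 1014 ± 136, a log2 fold change of -3.80. Chst9 (-4.86), Pbx3 (-4.28), the orexin receptor gene Hcrtr2 (-4.15), Otof (-3.54), Lamp5 (-3.32), Col6a1 (-3.22), Sema5b (-3.16), Pde11a (-3.0), Meis1 (-3.0), Cdh6 (-2.96), Sv2c (-2.96) and Tshz1 (-2.91) were lower as well. C79798 (-3.86) overlaps Pbx3, and reads of the pair may not be separable.

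**Figure D3:**
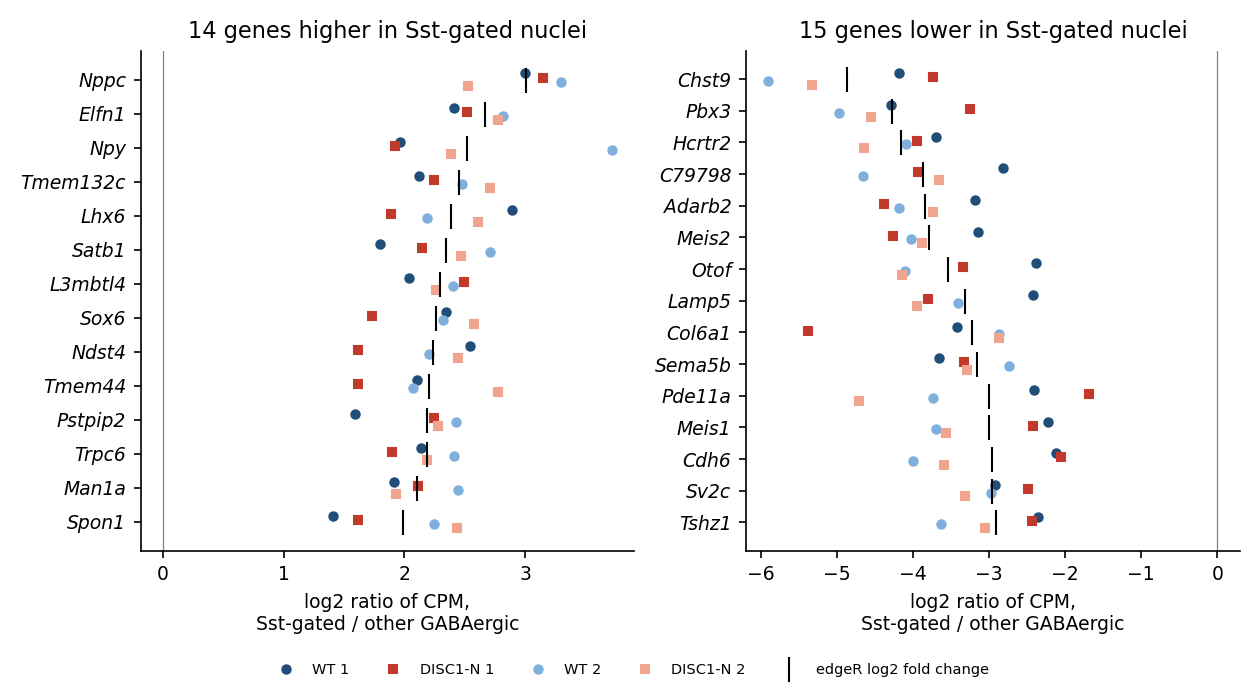
Ratio of CPM in Sst-gated to other GABAergic nuclei (log2) for 14 of the 15 genes with the largest rises and the 15 with the largest falls; points are libraries and bars the edgeR log2 fold change. Each library lies on the same side of 0 for each gene shown.

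By list, 11 of 12 tested medial ganglionic eminence genes were higher and 0 lower, with a median log2 fold change of 1.47 where all tested genes had 0.02. Over all tested genes, 11.0% were called higher and 11.0% lower, the shares to set beside this and the next lists. Of 10 tested caudal ganglionic eminence genes 9 were lower, with a median of -1.75, and 1, Calb2, was higher. Of 14 tested genes of central and intercalated amygdala GABA neurons 11 were lower, among them Penk (-2.06) and Drd1 (-0.72), with a median of -1.88. Pde10a, a striatal-type phosphodiesterase gene of that list, was higher (0.41). Parvalbumin genes were mixed: Tafa2 was higher (0.30), Erbb4 (-1.44) and Eya4 (-2.38) were lower, and 3 others did not pass.

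Of 25 genes that divide somatostatin subtypes 18 could be tested, and 10 were higher and 4 lower, with a median of 0.98. All tested genes gave 11.0% each way. Chodl (3.52, SE 0.29), Cort (1.98), Calb1 (1.94), Crhr2 (1.88) and Nos1 (1.76) led the rises. The falls were Pld5 (-2.60), Unc13c (-1.85), Reln (-1.39) and Tac1 (-0.86). The members were thus enriched in several subtype genes at once, at levels from 11.2 CPM for Nmbr to 780 CPM for Npy.

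Of 16 tested granin and peptide processing genes 8 were higher and 2 lower in the members than in other GABAergic nuclei, with a median of 0.20. The share over all tested genes was 11.0% each way, for this and the other lists of this paragraph. Against Vip-gated nuclei, 2 of the 16 were higher and 1 lower, beside 4.81% higher and 5.58% lower over all genes tested there. Of 10 tested neuropeptide genes 3 (Npy, Cort and Pnoc) were higher than in other GABAergic nuclei and 4 (Penk, Tac1, Tac2 and Cck) lower, with a median of -0.22. Vgf, a precursor gene of secreted peptides, gave 406, 326, 240 and 140 CPM in members of WT 1, DISC1-N 1, WT 2 and DISC1-N 2, and 92.0 ± 27.1 CPM in other GABAergic nuclei (log2 fold change 1.55, SE 0.09). The convertase gene Pcsk1 (1.16), the granin genes Chga (1.13) and Scg2 (0.43) and Pcsk2 (0.26) were also higher. Of 22 chaperone genes 6 were higher and 0 lower; these 6, Hspa5, Hsp90b1, Canx, Pdia3, Pdia6 and Dnajb11, act in the endoplasmic reticulum, where secreted proteins fold.

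Receptor and channel genes moved in both directions, beside 11.0% of all tested genes called higher and 11.0% lower. The AMPA receptor genes Gria3 (1.09), Gria1 (0.68) and Gria4 (0.62) were higher, and Gria2 stood at 1141 ± 106 CPM against 1169 ± 118. Of 16 ionotropic glutamate receptor genes 7 were higher and 6 lower. The metabotropic glutamate receptor gene Grm8 was lower (-0.38). Among 14 GABA receptor genes 3 were higher and 7 lower, with the largest falls for Gabrd (-2.32) and Gabrg3 (-2.06). The delta subunit gene Gabrd was at only 3.62 CPM in members.

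Of 31 potassium and HCN channel genes 7 were higher and 13 lower (median -0.25). For these and the next lists too, all tested genes gave 11.0% each way. Kcnmb2 (1.06) and Kcnc2 (0.89) were higher. Kcnq5, an M-current channel gene, stood at 350 ± 111 CPM in members and 1459 ± 123 CPM in other GABAergic nuclei (-2.11, SE 0.11), and Kcnip4 fell by 1.12. Of 25 tested monoamine, acetylcholine and peptide receptor genes 7 were higher and 13 lower. The serotonin receptor gene Htr2c was higher at 609 ± 130 against 260 ± 36.3 CPM (1.22), as was the neuropeptide Y receptor gene Npy2r (1.41), and the mu opioid receptor gene Oprm1 was lower (-1.46). Of 33 synaptic adhesion genes 11 were higher, among them Cbln4 (2.01), Cntnap4 (1.61) and Ptprt (1.31), and 9 were lower, among them Cdh13 (-1.04).

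Nuclei gated on Vip, which mark interneurons of the caudal ganglionic eminence, gave a narrower contrast with 22 to 41 nuclei per library. In 6815 genes tested, 328 (4.81%) were higher and 380 (5.58%) lower in Sst-gated nuclei (edgeR, library as a block), again as a description. Npy was higher by 4.34 on the log2 scale (SE 0.21), Tox by 3.39, Nxph1 by 3.28, Sox6 by 3.17 and Nos1 by 3.11. Sntb1 (-6.78), Adarb2 (-5.48), the adrenergic receptor gene Adra1b (-5.08), Tac2 (-5.03) and Prox1 (-4.89) were lower. Nxph1 averaged 2835 ± 539 CPM in the members and 338 ± 366 CPM in Vip-gated nuclei. In Vip-gated nuclei of WT 1, DISC1-N 1, WT 2 and DISC1-N 2 it gave 714, 39.3, 590 and 10.7 CPM. Sox6 gave 321, 19.7, 171 and 0 CPM there, so both genes were lower in both DISC1-N libraries of this comparison set.

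Turning to genotype, Sst-gated nuclei made up 22.2% (95% exact Clopper-Pearson interval 18.9 to 25.8) of GABAergic nuclei in WT replicate 1 and 22.6% (20.0 to 25.4) in WT replicate 2. DISC1-N replicate 1 had 23.9% (19.8 to 28.4) and DISC1-N replicate 2 had 19.3% (16.8 to 22.0); the intervals cover counting error only. DISC1-N libraries lay on either side of the WT libraries. The means were 22.4% ± 0.265 in WT and 21.6% ± 3.28 in DISC1-N (SD, n = 2), a difference of -0.809 percentage points (two-sided exact permutation p = 1; the smallest p that 2 against 2 libraries allow is 0.333). Within replicate 1 the difference was 1.70 points and within replicate 2 it was -3.32 points.

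**Figure D4:**
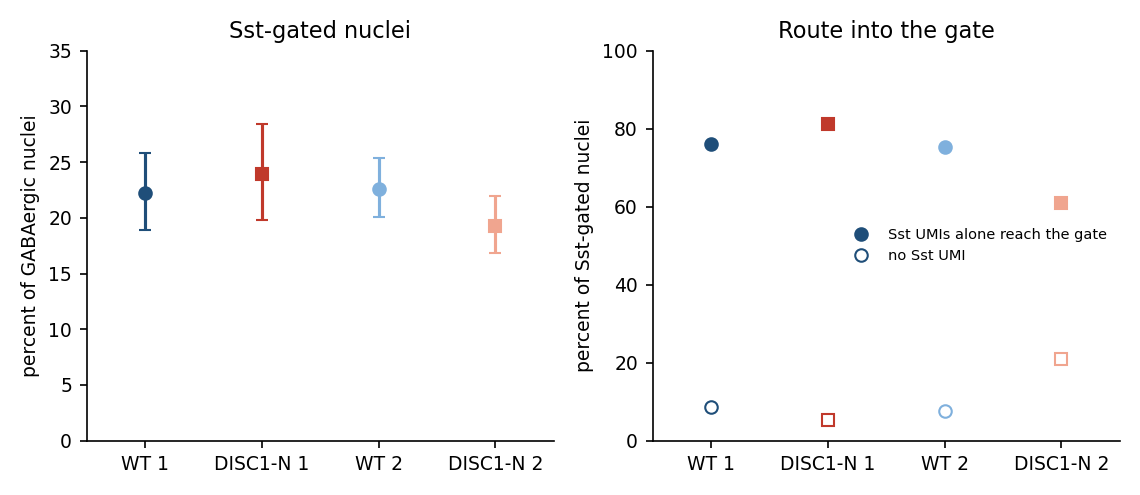
Left, Sst-gated nuclei in percent of GABAergic nuclei per library with 95% exact Clopper-Pearson intervals. Right, percent of the members that entered through Sst UMIs alone (filled) and that held no Sst UMI (open); DISC1-N replicate 2 has the lowest filled and the highest open point.

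Sst summed over all GABAergic nuclei was partly set by the rule, because 255 members (40.5%; 47.3% in WT replicate 1 and 30.2% in DISC1-N replicate 2) held 1 or 2 UMIs of the GABA genes and came in only through Sst, Moxd1 and Crhbp. It was therefore tested over the 351 to 872 nuclei per library that held at least 3 UMIs, and at least 5 per 10000, of Gad1, Gad2 and Slc32a1 whatever their Sst. These nuclei also held at most 1 UMI of Slc17a7 and Slc17a6 summed. This set was chosen after seeing the data. It held 58 members in WT 1, 46 in DISC1-N 1, 109 in WT 2 and 111 in DISC1-N 2. Some members with 3 or more UMIs of the GABA genes were left out as well, since they missed the 5 per 10000. Sst stood there at 682 CPM in WT replicate 1, 806 in DISC1-N replicate 1, 1156 in WT replicate 2 and 353 in DISC1-N replicate 2. DISC1-N was higher within replicate 1 and lower within replicate 2. The log2 fold change was -0.68 (SE 0.38, adjusted p = 1, edgeR). With the replicate number as a block it was -0.73 (SE 0.11, adjusted p = 8.2e-08, edgeR), although the difference had opposite signs in the replicate numbers. The fall thus rests on replicate 2, where WT was the highest library and DISC1-N the lowest. With the block 1 residual degree of freedom is left, and this p-value does not measure the spread between the replicate numbers. Whether the WT replicate 2 nucleus with 1230 Sst UMIs contributed was not tested. In that blocked fit Moxd1 changed by 0.30 (SE 0.11, adjusted p = 0.24) and Crhbp by 0.06 (SE 0.12, adjusted p = 0.97).

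Within the members, none of 9864 genes passed the edgeR test of DISC1-N against WT, 0% called, with 167 genes at an unadjusted p under 0.05. A gene that missed the threshold is not thereby shown to be alike in the genotypes. DESeq2 also called 0 genes, with 27 at an unadjusted p under 0.05, and limma-voom called 0, with 176. The replicate number marked a processing batch in the file headers, and the edgeR fit blocked on it called 35 genes, of which 7 were higher (0.0710%) and 28 lower (0.284%). All 35 had the same sign in both replicate numbers. This fit leaves 1 residual degree of freedom, and edgeR's common biological coefficient of variation was 0.0863 in it and 0.185 without the block. With DESeq2 and the block, mt-Atp6 and mt-Co2 were the 2 genes called. Of the 35, 10 were mitochondrially encoded, 5 were gene models with provisional names, 4 others were higher and 16 others were lower.

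Pcdh18, a protocadherin gene (chromosome 3, 49743296 to 49757325), fell most among the named genes. It gave 47.6 CPM (34 UMIs in 27 of 129 nuclei) in WT replicate 1 and 47.9 CPM (56 UMIs in 42 of 223) in WT replicate 2. DISC1-N replicate 1 gave 16.3 CPM (11 UMIs in 11 of 96) and DISC1-N replicate 2 gave 13.6 CPM (15 UMIs in 14 of 182). Both DISC1-N libraries were below both WT libraries, and no nucleus held more than 3 UMIs. The log2 fold change was -1.67 (SE 0.32, adjusted p = 3.7e-04, edgeR with the replicate block), and the call held in 9 of 12 other blocked settings. Of those 12, the call held in 9 for Hsp90ab1, Caly and Malat1, in 8 for Bicc1 and Ndst4, and in 7 for Atp5h and Atp6v0c. It held in 6 for Btk, Pycard, Rabac1, Sec62, Bsg and Ndufa4, and in 4 for Gnai2 and Hsp90aa1.

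Pcdh18 was also a gene of the members: other GABAergic nuclei held 5.44 ± 2.50 CPM, a log2 fold change of 2.63 (SE 0.30). In those other nuclei it gave 5.62, 8.87, 3.72 and 3.51 CPM in WT 1, DISC1-N 1, WT 2 and DISC1-N 2. The genotype difference in members differed from that in other nuclei by -1.95 on the log2 scale (SE 0.55), but this interaction did not pass (adjusted p = 0.31, edgeR with the replicate block).

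Bicc1, an RNA-binding protein gene (chromosome 10, 70922832 to 71159700), rose. It gave 11.2 and 9.41 CPM in WT replicates 1 and 2 (8 and 11 UMIs) and 46.0 and 24.4 CPM in DISC1-N replicates 1 and 2 (31 and 27 UMIs). The genotypes did not overlap, and the log2 fold change was 1.71 (SE 0.37, adjusted p = 0.0061, edgeR with the replicate block). In other GABAergic nuclei Bicc1 ranged only from 28.1 to 36.4 CPM, and the interaction was 1.51 (SE 0.41, adjusted p = 0.23). Pycard (2.09), an inflammasome adaptor gene, rested on 1 to 21 UMIs per library and Btk (1.68), a kinase gene of immune cells, on 5 to 23, of which 1 nucleus of DISC1-N replicate 2 held 11. Summed markers of microglia were at 75.5, 90.4, 77.0 and 91.2 CPM in members of WT 1, DISC1-N 1, WT 2 and DISC1-N 2, with 0 of 6 markers at 0; their part in these rises was not tested. Malat1, a nuclear long noncoding RNA, rose by 0.31 (SE 0.06, adjusted p = 0.0014, edgeR with the replicate block).

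Gnai2, an inhibitory G protein subunit gene, gave 33.6 and 45.4 CPM in the WT libraries and 14.8 and 17.2 CPM in DISC1-N, a log2 fold change of -1.29 (SE 0.32). The genotypes did not overlap. Other falls in the blocked fit were Atp5h (-0.87), Rabac1 (-0.78), Hsp90ab1 (-0.76), Caly, a vesicle protein gene (-0.72), Sec62 (-0.68), Bsg (-0.65), the proton pump gene Atp6v0c (-0.64) and the respiratory chain gene Ndufa4 (-0.64), with adjusted p from 0.0020 to 0.0298 over Gnai2 and these genes (edgeR). Ndst4, 1 of the 15 genes that marked the members, gave 480 and 549 CPM in WT and 259 and 447 CPM in DISC1-N, and fell by 0.53.

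**Figure D5:**
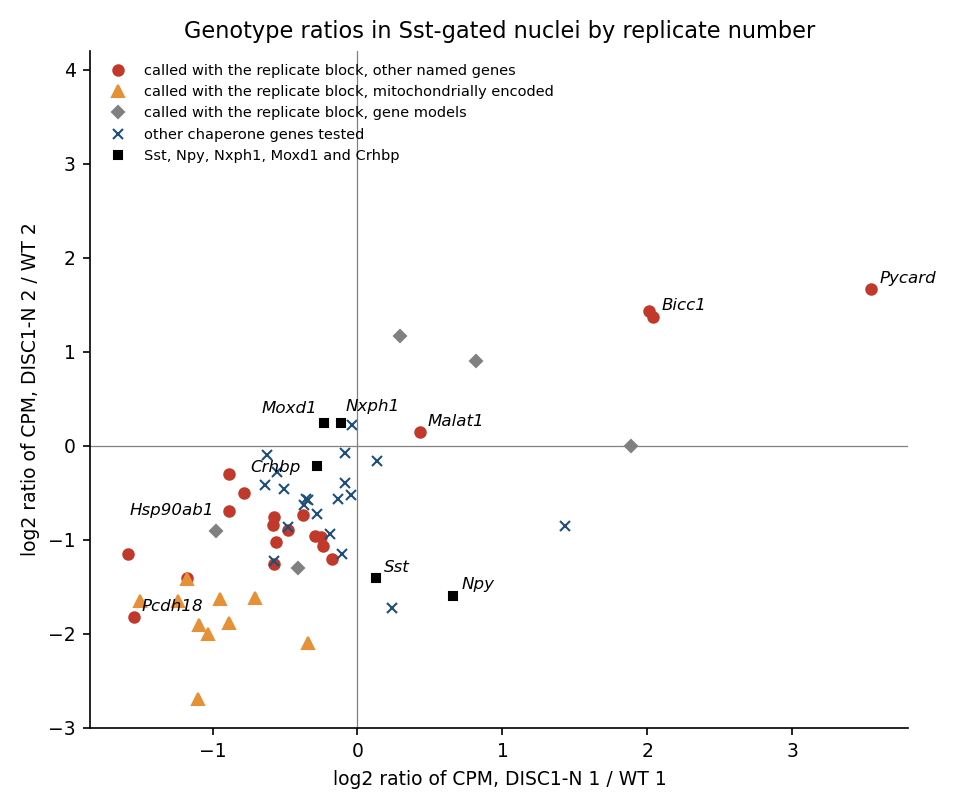
Log2 ratio of CPM, DISC1-N to WT, in the Sst-gated nuclei of replicate 1 (horizontal) and replicate 2 (vertical), 1 point per gene. Called genes lie in the lower left and upper right, while Sst and Npy are above 0 in replicate 1 and below 0 in replicate 2.

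Chaperone genes made up 2 of the 28 called falls. Hsp90ab1, a cytosolic chaperone gene, stood at 309 and 162 CPM in WT replicates 1 and 2 and 168 and 100.3 CPM in DISC1-N replicates 1 and 2, lower in DISC1-N within each number (-0.76, SE 0.16, adjusted p = 0.0020, edgeR with the replicate block). Hsp90aa1 gave 341 and 116 CPM in the WT libraries and 199 and 81.3 CPM in DISC1-N (-0.63, SE 0.16, adjusted p = 0.032). Of 22 tested chaperone genes these 2 were called, beside 0.284% of all genes called lower. Of the 22, 19 had negative values and 18 were lower within both replicate numbers, where 29.5% of all tested genes were. The list's median was -0.44, beside 0.00 for all genes. Summed chaperone genes gave 2673, 2058, 1729 and 1192 CPM in members of WT 1, DISC1-N 1, WT 2 and DISC1-N 2. The other GABAergic nuclei gave 2252, 1924, 1512 and 1106 CPM and all kept nuclei 1701, 1480, 1363 and 1050 CPM, so the order was the same outside the members.

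Mitochondrial transcripts moved with these genes. All 11 tested mitochondrially encoded genes had negative values, 10 were called, and their median was -1.40. They summed to 2596, 1231, 1438 and 412 CPM in members of WT 1, DISC1-N 1, WT 2 and DISC1-N 2, and to 2565, 1405, 653 and 487 CPM in other GABAergic nuclei. The median member held 0.224%, 0.102%, 0.0383% and 0.0333% mitochondrial UMIs in the same order, so the replicate 2 medians were close. The medians of other GABAergic nuclei were 0.222%, 0.126%, 0.0350% and 0.0395%, higher in DISC1-N within replicate 2. Without the 10 members at 1% or more mitochondrial UMIs, which were all WT, the members held 2460, 1231, 652 and 412 CPM. The part of this RNA in the other falls was not tested. With those nuclei left out, the blocked fit called 18 genes, all of them among the 35.

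Peptide genes did not pass within the members. Npy changed by -0.47 (SE 0.16, adjusted p = 0.24, edgeR with the replicate block), with log2 ratios of 0.66 in replicate 1 and -1.59 in replicate 2. Without the highest nucleus of each library Npy stood at 476, 702, 885 and 357 CPM in WT 1, DISC1-N 1, WT 2 and DISC1-N 2. Nxph1 changed by 0.10 (SE 0.10, adjusted p = 0.92). Of 16 granin and processing genes 0 were called; Vgf (-0.51, adjusted p = 0.080) and Scg2 (-0.55, adjusted p = 0.084) had the lowest p-values. Of 16 subtype genes, 12 medial ganglionic eminence genes, 16 ionotropic glutamate receptor genes, 13 GABA receptor genes, 29 potassium and HCN channel genes and 26 DISC1 partner genes tested, 0 passed in the blocked fit, with medians of -0.29, 0.10, 0.00, -0.08, -0.02 and -0.01. Over all genes that fit called 0.0710% higher and 0.284% lower, so 0 calls do not set these lists or the granin list apart.

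The difference between the genotype effects in Sst-gated and other GABAergic nuclei was tested for 12017 genes, and 0% were called (edgeR, library as a block), with 412 at an unadjusted p under 0.05 and 0 called by DESeq2. Among the lowest p-values were those of Rbm27 (0.84), Tax1bp1 (0.66) and Cpeb1 (0.65), and of Mboat2 (-0.62) and Ndufa4 (-0.53), given as log2 differences, all with an adjusted p of 0.9998. Over all GABAergic nuclei the block gave 110 genes, 82 of them lower (0.593% of 13824). Hsp90ab1 (-0.59), Hsp90aa1 (-0.39), Rabac1 (-0.51), Atp6v0c (-0.50) and Ndst4 (-0.40) were among them, while Pcdh18 (-0.91, adjusted p = 0.064), Gnai2 (-0.44, adjusted p = 0.32) and Bicc1 (0.42, adjusted p = 0.29) did not pass there (edgeR).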

How the data were processed

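Libraries were made with the 10x 3' v3 kit, per the labels. The authors deposited raw, unnormalized UMI counts per gene and barcode from Cell Ranger on mm10, per the file headers. By the headers, replicate 1 libraries came from version 7.0.0 and replicate 2 libraries from 6.0.2; the submitters' processing notes list 7.0.0 alone. No source used here says whether introns were counted or how nuclei were called. Strand and overlapping genes cannot be resolved from these counts.

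Members were taken by the gate, with no clustering. Nuclei of high Scrublet score (0.8% per 1000 nuclei; 27 members) were kept and removed as an alternative. UMIs were summed per class and library and fitted in edgeR 4.0.16 (quasi-likelihood, TMM, filterByExpr minimum count 10; R 4.3.3), with Benjamini-Hochberg adjusted p over all genes tested; the 11 gate genes were left out of calls within gated classes. DESeq2 1.42.0 and limma 3.58.1 were run beside it, and shares were computed in Python 3.11.15. SE is the log2 fold change over the root of F. The genotype fit has no block; a fit with the replicate number, a processing batch per the file headers, is printed beside it, since same-numbered libraries deviated together (r = 0.394 over 9871 genes). Coordinates are 1-based on mm10 from GENCODE (32235 of 32285 features matched by identifier).

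Members, gene lists, tests and the rule for named genes were chosen with earlier results of these data known. Named genes are the 15 largest differences each way against other GABAergic nuclei and 8 against Vip-gated nuclei (adjusted p under 0.05, at least 50 CPM in the higher class, the same direction in 4 of 4 libraries). For genotype they are the 10 largest each way with both replicate numbers of the same sign. For the class by genotype difference they are the 5 lowest p-values each way. Gate genes, provisional gene models and mitochondrial, ribosomal protein and Y-linked genes, Xist and Tsix were left out. Sst, Npy, Nxph1, Disc1, subtype genes and the leading genes of each list are always named. The genes compared by route, Ndst4, Hsp90aa1 and Ndufa4 in the genotype comparison, and mitochondrial genes were named after their values were seen. Some genes that the rule names are not reported here. Each model was tried on simulated data first.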

Additional observations from a re-analysis of the deposited data

Results flagged for a closer look

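The genotype difference differed between Sst-gated and other GABAergic nuclei for 4 named genes in the edgeR fit with the replicate block, a test of the difference itself, and for none without it. For mt-Atp6 the effect in members differed by -0.8589 on the log2 scale (adjusted p = 0.0038), for mt-Cytb by -0.8235 (adjusted p = 0.0081) and for mt-Co2 by -0.7702 (adjusted p = 0.035). For Npy it was -0.6781 (adjusted p = 0.0095), but members had an Npy ratio above 0 in replicate 1 (0.66) and below 0 in replicate 2 (-1.59). Without the nuclei at 1% or more mitochondrial UMIs, left out of members and of other GABAergic nuclei alike, 0 genes were called in this fit. The 1 further called gene, 9630013A20Rik (3.95), is a provisional gene model whose ratios also had opposite signs in the replicate numbers.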

How the results depend on the processing

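Of DISC1-N against WT in the members, the count of 0 genes became 8 with no low-count filter and 35 with the replicate block. With the block it was 40 with DESeq2 size factors, 41 with no filter, 2 with DESeq2, 37 with limma-voom, 48 with the strict gate, 55 with the wide gate, 18 with Sst alone, 38 at 1000 genes or more, 15 without doublets, 18 under 1% mitochondrial UMIs, 19 with thinned sums and 10 with members on the stricter GABA gene limit. Of the 35 genes, 35 were shared with DESeq2 size factors, 34 with limma-voom, 26 with the strict gate, 15 with Sst alone, 18 under 1% mitochondrial UMIs and 9 with the GABA gene limit. Leaving out a library gave 2 to 14 genes without a block, 14 without DISC1-N replicate 1; the lone sample of a genotype is then assumed to vary like the others. The blocked combinations, the GABA gene limit and the 1% limit were chosen after seeing the data. Among the 14 named genotype genes, 82 of 179 gene and setting pairs fell below the threshold and 97 kept their call, with none reversed; the named class genes kept theirs in all 477 pairs and the Vip contrast in all 96.

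The class count of 2468 was 1224 with DESeq2, 898 with nuclei thinned to 1000 UMIs, 1264 with no library block and 1673 to 2515 with a library left out. The Vip contrast gave 515 to 697 genes with a library left out, against 708. The class by genotype count of 0 became 5 with no filter, 5 with the replicate block, 14 with the GABA gene limit and 0 to 11 with a library left out, 11 without DISC1-N replicate 2. Over all GABAergic nuclei the count of 0 became 2 with no filter, 110 with the replicate block, 95 with the block and the GABA gene limit, and 0 to 11 with a library left out, 11 without DISC1-N replicate 1. In the block and GABA gene limit fit, Npy changed by -0.44 (adjusted p = 0.0256, edgeR). With that limit Npy stood at 207 CPM in WT 1, 300 in DISC1-N 1, 307 in WT 2 and 118 in DISC1-N 2. DISC1-N was thus higher within replicate 1 and lower within replicate 2.

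The share difference of -0.809 points turned to 0.970 with the GABA gene limit and to 1.51 without DISC1-N replicate 2, with -3.13 to 1.51 over libraries left out. With replicate numbers paired, the replicate block gave -0.809 (exact sign-flip p = 1, smallest possible 0.5). The planned comparison with Pvalb-gated nuclei was not run, because a library held only 3 to 5 of them where 10 were required. Pycard and Btk rest on few UMIs, and 2 libraries per genotype, possibly from shared mice, cannot separate a library from its genotype.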
